A study of Homo sapiens with 14 samples.

Results

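The genes of the cytosolic ribosome's protein parts were followed through RNA sequencing of 14 libraries from human ovarian cancer cell lines. Members were the protein-coding genes of an autosome or the X chromosome whose symbol is RPL or RPS with a number and at most a short suffix, with the RPS6K kinases left out, and RPLP0, RPLP1, RPLP2 and RPSA. This gave 84 members of the 62757 genes counted, 52 of the large subunit and 32 of the small subunit by symbol. They lay on 21 chromosomes, 4 of them on the X. A further 360 matching symbols were not protein-coding genes of these chromosomes and were left out. Genes of the ribosome with other symbols, such as FAU, RACK1, a scaffold on the small subunit, and RPL36AL, a copy of RPL36A, fall outside the rule and were counted apart.

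The libraries came in 7 groups of 2: OVCAR3-DDP with the hairpin sh2, OVCAR3-DDP with sh1, OVCAR3-DDP with shNC (used here as the hairpin control), OVCAR3-DDP without a hairpin, parental OVCAR3, A2780-DDP and parental A2780. OVCAR3 and A2780 are established ovarian cancer lines, DDP is an abbreviation of cisplatin and names the platinum-resistant derivative, and sh1 and sh2 are short hairpin RNAs against ADAR1, the adenosine-to-inosine editing enzyme encoded by ADAR. The study asked what RNA editing has to do with cisplatin resistance. The labels do not say whether a derivative is 1 clone, how it was selected, whether cisplatin was present at harvest, or whether replicates were separate cultures, and p-values therefore reflect no more than the scatter among these samples, which may be technical. In bulk RNA, fewer cells of a type and less RNA per cell cannot be told apart.

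Each library held 20428538 to 49115255 counts assigned to genes, of which 1023665 to 2228999 lay on members. ADAR itself stood at 116 and 114 CPM (counts per 1000000 counts assigned to genes) with sh2, 289 and 254 with sh1, and 447 and 399 with shNC. The libraries labelled as OVCAR3-DDP went against their label on cell identity: a list of 12 ovarian epithelial markers summed to 539 to 575 CPM in them, 5710 to 6050 in shNC and 4490 to 4900 in parental OVCAR3. CD44 and KRT19 had 0 counts in the libraries labelled as OVCAR3-DDP. Of 11 epithelial markers tested there against parental OVCAR3, 10 were called lower and 1, WT1, higher (log2 12.29, from 0 counts). A list of 8 neural or embryonic kidney markers summed to 543 to 552 CPM there, against 1.30 to 1.87 in parental OVCAR3. SOX11 on that list had 0 counts in both groups. Of the 6 tested in this comparison, 5 were called higher and 1 lower. In shNC the list summed to 7.09 to 9.74 CPM, with 5 of 6 called higher than in parental OVCAR3 and 0 lower. The A2780 libraries were low on the epithelial list too, with 198 to 205 CPM in parental A2780 and 278 to 306 in A2780-DDP. The neural list summed to 139 to 140 CPM in parental A2780 and to more in A2780-DDP. As their markers differ from those of parental OVCAR3, everything said of the libraries labelled as OVCAR3-DDP describes only those libraries. The hairpin libraries also differed as a set from the others, with 4.64% to 4.99% of reads not uniquely aligned, against 2.36% to 3.22%, and 0.726% to 0.947% of counts on mitochondrial messenger RNA, against 2.31% to 3.51%.

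Each ribosome takes up a single copy of nearly every ribosomal protein, so cells make these proteins in step, largely by controlling how their messenger RNAs are translated. Most vertebrate ribosomal protein messages start with a run of C and T, the terminal oligopyrimidine or TOP motif, through which the growth kinase mTOR and the RNA-binding protein LARP1 regulate translation and message stability. Fast-growing tumour cells need many ribosomes, and several ribosomal proteins have further roles, among them the binding of MDM2 by RPL5 and RPL11, which stabilises the tumour suppressor p53.

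RefSeq start sites (GRCh38.p14) were matched for 67 members. A run of at least 6 C or T that began with C within 10 bases of the annotated start was found in 51 of the 67 (76.1%), against 5607 of 27305 promoters in the whole table (20.5%). The windows below run from 10 bases before the start to 20 bases into the transcript, 30 bases on the gene's own strand, with the run in capitals. The first set shows members described below that have the run.

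RPLP2, chr11:809957-809986, plus strand: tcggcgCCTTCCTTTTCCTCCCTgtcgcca

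RPL29, chr3:51995876-51995905, minus strand: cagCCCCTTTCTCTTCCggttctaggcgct

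RPS6, chr9:19380217-19380246, minus strand: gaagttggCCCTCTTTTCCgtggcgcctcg

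RPS24, chr10:78033853-78033882, plus strand: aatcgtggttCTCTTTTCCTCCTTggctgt

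RPL21, chr13:27251548-27251577, plus strand: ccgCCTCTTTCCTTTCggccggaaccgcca

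RPS28, chr19:8321486-8321515, plus strand: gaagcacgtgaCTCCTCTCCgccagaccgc

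RPS16, chr19:39435930-39435959, minus strand: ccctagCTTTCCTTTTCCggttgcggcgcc

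The next set belongs to members that also moved but in which no such run was found at the annotated start.

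RPS27L, chr15:63157458-63157487, minus strand: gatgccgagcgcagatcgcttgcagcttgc

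RPL32, chr3:12841546-12841575, minus strand: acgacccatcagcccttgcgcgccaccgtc

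RPS29, chr14:49598691-49598720, minus strand: agcgcgcagctggcagcggtggttgtttct

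Runs of 9 to 17 letters stand in the first set, and RPS24 starts on the first C of its run. RPLP2 and RPL29, which were higher in the libraries labelled as OVCAR3-DDP, and RPS24, which was lower in them, all carry it. Within the 300 bases of each promoter, on either strand, the letters CCGGAAG occurred in 34.3% of the matched members and 10.7% of all promoters, and CACGTG in 5.97% and 7.43%. These are matches of letters in a window and nothing more.

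Counts on the 84 members together made up 6.29% and 6.47% of all assigned counts in the libraries labelled as OVCAR3-DDP and 4.55% and 4.33% in parental OVCAR3. They made up 3.71% and 3.22% in A2780-DDP and 3.38% and 3.58% in parental A2780. With the hairpins the share was 5.45% and 5.51% for sh2, 4.59% and 4.82% for sh1, and 5.25% and 5.91% for shNC. The libraries labelled as OVCAR3-DDP lay above all others, and the A2780 groups overlapped at the low end. The sh1 libraries lay below both shNC libraries, while the sh2 libraries lay between them. Group means were 6.38 ± 0.127% in the libraries labelled as OVCAR3-DDP and 4.44 ± 0.156% in parental OVCAR3 (SD, n = 2 each). No test of this summed share was made. The large subunit took 3.96% and 4.06% and the small subunit 2.34% and 2.41% in the libraries labelled as OVCAR3-DDP, against 2.82% and 2.7%, and 1.73% and 1.62%, in parental OVCAR3.

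**Figure D1:**
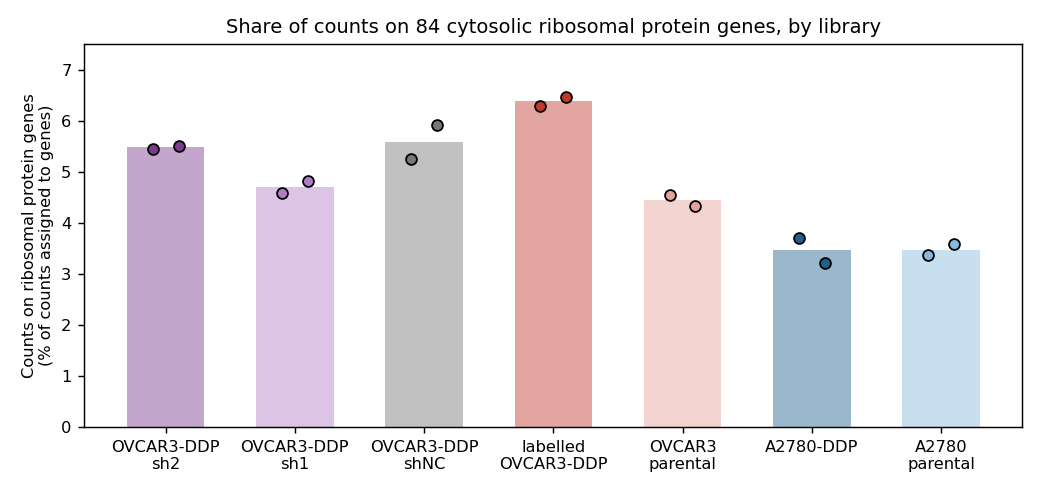
Share of all counts assigned to genes that fell on the 84 members (vertical axis, percent) in each group (horizontal axis). Points are libraries and bars are means of 2; the libraries labelled as OVCAR3-DDP reach 6.29% and 6.47%, and the A2780 libraries range from 3.22% to 3.71%.

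Of the 84 members, 67 had at least 100 CPM in every library and 3 stayed under 10 CPM in every library. Per kilobase of annotated exon, the highest mean levels over the groups were those of RPS2 (803 CPM per kilobase), RPS12 (762) and RPL8 (752). The lowest were RPS10 (1.66 CPM per kilobase), RPL3L (0.393) and RPL10L, which had 0 counts in every library. RPL10L, a testis copy of the X-linked RPL10, was the member that entered no test, and the other 83 were tested in every fit. The order depends on the length used: per kilobase of coding sequence RPL41, whose coding sequence of 75 bases is the shortest, came first with 3270 CPM per kilobase.

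For a few members the counts carry less than the gene's full signal. RPS10 shares 39.4% of its exon bases with the read-through gene RPS10-NUDT3 on the same strand and RPL17 32.7% with RPL17-C18orf32, so reads from those exons cannot be given to either gene. Annotated pseudogenes named after the member took 67.9% of the counts of gene and pseudogenes together for RPS10, 61.1% for RPL36A and 54.8% for RPL17, and less than 20% for every other member. Levels and fold changes of these 3 are uncertain. RPL26 and RPS15A had 14791 and 28185 counts over all 14 libraries and were not among the 67 members with at least 100 CPM throughout. They share 14.3% and 3.26% of their exon bases with another gene on the same strand. Whether their counts hold their full signal was not tested. All pseudogenes together held 0.0537% to 0.125% of assigned counts.

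The balance among members set the cell lines apart. Over the 67 members with at least 100 CPM throughout, the log2 ratio of group means varied with an SD of 0.588 between the libraries labelled as OVCAR3-DDP and parental OVCAR3, and of 0.655 between those libraries and shNC. Between shNC and parental OVCAR3 that SD was 0.225, between A2780-DDP and parental A2780 0.172, and between parental OVCAR3 and parental A2780 0.551. Between the 2 libraries of a group it ran from 0.045 to 0.163. The libraries labelled as OVCAR3-DDP thus differed from parental OVCAR3 in the make-up of these messages by about as much as the other parental line did.

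In the libraries labelled as OVCAR3-DDP, ribosomal protein messages moved in both directions. RPL29, a large subunit protein, stood at 1410 and 1570 CPM in these libraries and 478 and 488 CPM in parental OVCAR3. RPLP2, which pairs with RPLP1 on the stalk that draws translation factors to the ribosome, stood at 655 and 667 CPM against 219 and 223 CPM. RPS6, the small subunit protein phosphorylated by the S6 kinases, stood at 1090 and 1070 CPM against 415 and 373 CPM. All 3 were higher in both libraries with no overlap, by log2 1.44 (SE 0.10; edgeR adjusted p = 3.26e-08), 1.41 (SE 0.10; edgeR adjusted p = 4.18e-08) and 1.28 (SE 0.12; edgeR adjusted p = 4.01e-07). SEs here and below are approximate, and fold changes are taken after TMM scaling, so they need not equal the ratio of CPM values. RPL3L, a heart and skeletal muscle copy of RPL3, had the largest rise at log2 2.23 (SE 0.40; edgeR adjusted p = 0.000246), but on 72 and 46 counts in the libraries labelled as OVCAR3-DDP and 13 and 14 counts in parental OVCAR3. RPL3 itself rose by log2 1.00 (SE 0.10), RPL18 by 1.22 (SE 0.10) and RPL9 by 1.11 (SE 0.11), all large subunit proteins.

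RPS27L fell the most. This copy of RPS27, known as a target of p53, stood at 18.1 and 15.5 CPM in the libraries labelled as OVCAR3-DDP and 52.2 and 60.2 CPM in parental OVCAR3 (log2 −1.92, SE 0.14; edgeR adjusted p = 3.57e-08). RPS24, a small subunit protein mutated in Diamond-Blackfan anaemia, stood at 428 and 442 CPM against 774 and 824 CPM (log2 −1.05, SE 0.10; edgeR adjusted p = 5.70e-07). RPL26, which sits at the exit of the peptide tunnel, stood at 26.6 and 22.8 CPM against 46.5 and 44.7 CPM (log2 −1.06, SE 0.14; edgeR adjusted p = 1.21e-05). The groups did not overlap for any of the 3. Whether the counts of RPL26 hold its full signal was not tested. RPL17 was called lower too (log2 −1.41, SE 0.27), but its parental libraries held 9.20 and 17.6 CPM, it is among the members uncertain through read-through and pseudogenes, and without replicate 2 of parental OVCAR3 the change was −0.88.

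Members of 1 structure did not move together. In the stalk, RPLP2 rose while its partner RPLP1 fell by log2 −0.75 (SE 0.10) and their anchor RPLP0 by −0.55 (SE 0.10). RPLP0 stood at 1760 and 1830 CPM in the libraries labelled as OVCAR3-DDP and 2510 and 2140 CPM in parental OVCAR3, and RPLP1 at 710 and 757 CPM against 1090 in both parental libraries. Of the partners in MDM2 binding, RPL11 rose by log2 0.50 (SE 0.10) and RPL5 did not pass (0.13, SE 0.09; edgeR adjusted p = 0.246). This split depends on the scaling. RPL5 was called higher with upper-quartile scaling (0.25) and total counts (0.31), and RPL11 was not called when scaled to the members' own sum (0.15). RPL13A, which also acts in a complex that silences inflammatory messages, rose by log2 0.79 (SE 0.11), RPS19, the gene most often mutated in Diamond-Blackfan anaemia, by 0.76 (SE 0.11), and RPSA, also known as a laminin receptor, by 0.50 (SE 0.12). Without replicate 2 of parental OVCAR3 the RPSA change was 0.32. RPS27A, made as a fusion with ubiquitin, fell by log2 −0.44 (SE 0.10), and RPS3, which also acts in DNA repair, did not pass (0.01, SE 0.10; edgeR adjusted p = 0.962).

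In all, 44 of 83 members were called higher and 18 lower in the libraries labelled as OVCAR3-DDP (edgeR adjusted p under 0.05), where 33.4% of the 23031 genes tested were called higher and 35.2% lower (68.5% either way). The large subunit had 29 higher and 8 lower of 51, the small subunit 15 higher and 10 lower of 32. The members' median log2 fold change was 0.25, against −0.03 over all genes tested, and 0.43 against 0.12 with total-count scaling. Their fold changes were less spread than those of all genes. The quartiles were −0.18 and 0.74 with an SD of 0.70, against −0.94 and 0.96 with an SD of 3.2. When libraries were scaled to the members' own sum, which leaves only shifts of balance among them, 21 were higher and 32 lower. This comparison and the next were fitted together on 8 libraries with 1 spread per gene.

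**Figure D2:**
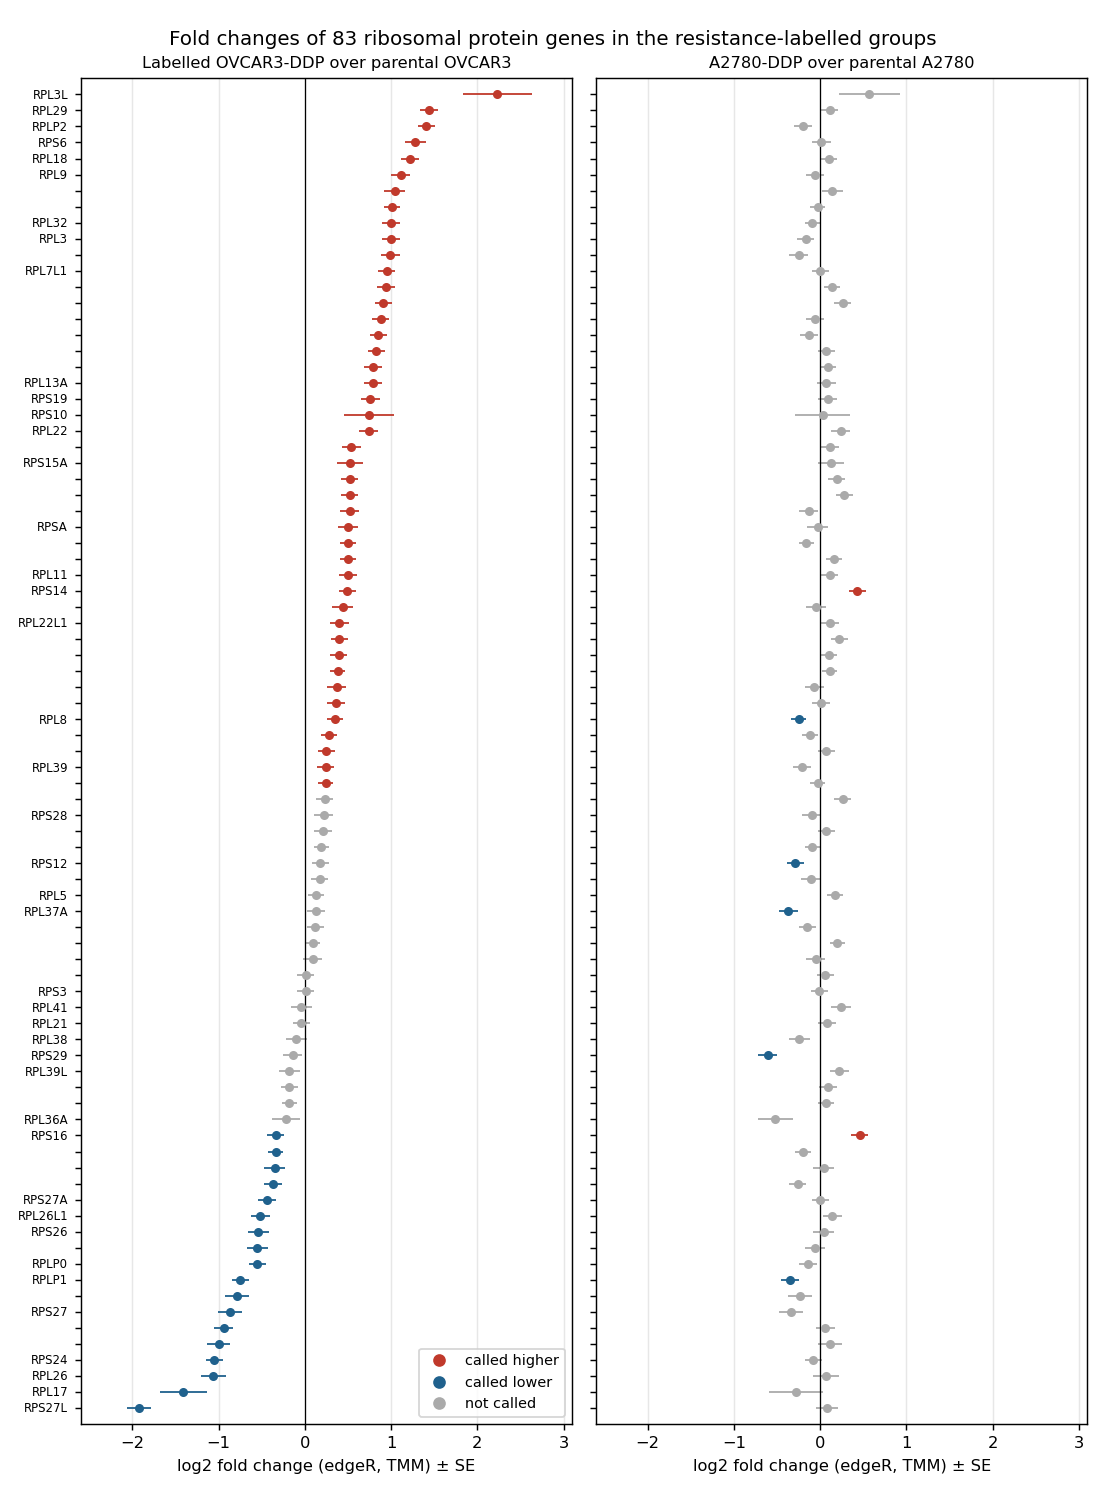
Log2 fold change (horizontal axis, ± approximate SE) of 83 members, 1 row each and named where the text gives results for them, for the libraries labelled as OVCAR3-DDP over parental OVCAR3 (left) and A2780-DDP over parental A2780 (right), in the order of the left panel. Red points were called higher (44 left, 2 right), blue called lower (18 left, 5 right) and grey not called; values in the right panel run from −0.61 (RPS29) to 0.57 (RPL3L).

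In A2780-DDP few members differed from parental A2780. RPS16, a small subunit protein, stood at 662 and 556 CPM in A2780-DDP and 436 and 458 CPM in parental A2780, and RPS14, of the same subunit, at 501 and 420 CPM against 338 and 351 CPM. They were the only members called higher, by log2 0.46 (SE 0.10; edgeR adjusted p = 0.00294) and 0.43 (SE 0.10; edgeR adjusted p = 0.00382). RPS29, a zinc-binding small subunit protein, stood at 56.3 and 55.5 CPM in A2780-DDP and 79.6 and 92.0 CPM in parental A2780. It fell by log2 −0.61 (SE 0.11; edgeR adjusted p = 0.00100), with no overlap between the groups.

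RPL37A (log2 −0.37, SE 0.11), RPLP1 (−0.35, SE 0.10), RPS12 (−0.29, SE 0.10) and RPL8 (−0.25, SE 0.09) were called lower as well. RPL8 was named after its value was seen. Each of these 4 calls was lost when some single libraries were left out: RPL37A was not called without replicate 2 of parental A2780 (−0.17) or of A2780-DDP (−0.23). RPLP1 and RPS12 were not called without either parental replicate or without replicate 2 of A2780-DDP, where RPLP1 came to −0.16, and RPL8 was not called without any 1 of the 4 libraries. Without replicate 1 of parental A2780 the folds were no smaller, at −0.37 for RPLP1, −0.29 for RPS12 and −0.27 for RPL8. With every library kept, RPS12 (−0.27) and RPL8 (−0.22) were also not called with DESeq2 size factors or upper-quartile scaling. The same held with all 14 libraries in the fit. RPL8 was not called with DESeq2's Wald test (−0.22) or a replicate block (−0.25) either. In total 2 of 83 members were called higher and 5 lower, against 18.0% and 17.3% of all genes, with a median log2 fold change of 0.03 against 0.00. Without replicate 2 of A2780-DDP, 17 were called higher and 1 lower, and the median was 0.21; without replicate 1 it was −0.08. RPL29 (log2 0.11, SE 0.10), RPLP2 (−0.20, SE 0.10), RPS6 (0.01, SE 0.11), RPS24 (−0.08, SE 0.10) and RPS27L (0.08, SE 0.13), which moved most in the other line, did not pass in A2780.

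The difference between the lines was tested itself, as the change in the libraries labelled as OVCAR3-DDP minus the change in A2780-DDP, each against its parental line. It was called positive for 35 of 83 members and negative for 15, against 26.9% and 26.9% of all genes (53.8% either way). The negative count fell to 8 without either library labelled OVCAR3-DDP, to 7 without replicate 1 of parental A2780 or of A2780-DDP, and to 7 with total counts. RPLP2 differed by log2 1.60 (SE 0.14; edgeR adjusted p = 6.04e-07), RPL29 by 1.33 (SE 0.14; edgeR adjusted p = 3.55e-06) and RPS27L by −2.0 (SE 0.19; edgeR adjusted p = 1.16e-06). RPS16 went opposite ways, lower by log2 −0.34 (SE 0.10) in the libraries labelled as OVCAR3-DDP and higher by 0.46 in A2780-DDP, with a difference of −0.80 (SE 0.14; edgeR adjusted p = 0.000322). Its fall in the libraries labelled as OVCAR3-DDP was not called without their replicate 1 or with upper-quartile or total-count scaling.

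**Figure D3:**
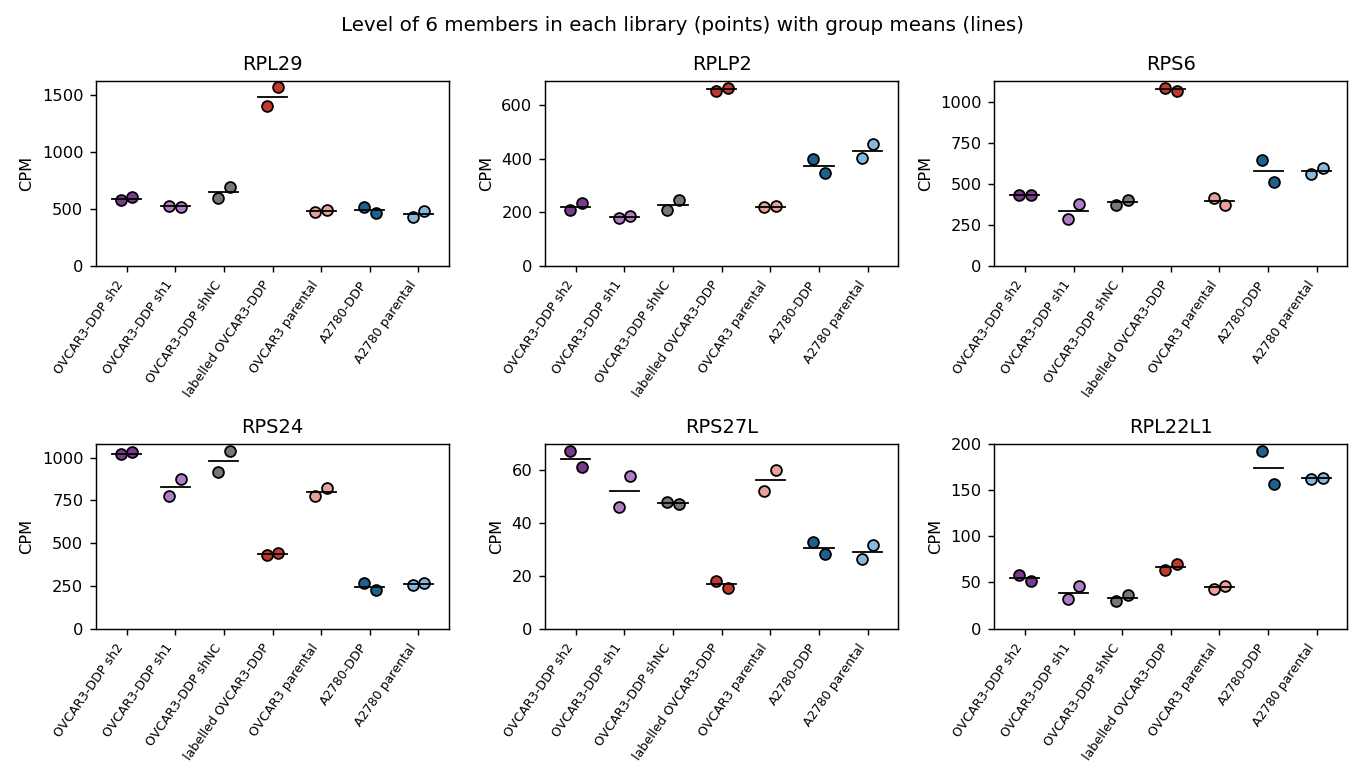
CPM (vertical axis, from 0) of RPL29, RPLP2, RPS6, RPS24, RPS27L and RPL22L1 in each library, by group (horizontal axis). Points are libraries and lines are means of 2; RPL29, RPLP2 and RPS6 are highest in the libraries labelled as OVCAR3-DDP, RPS27L is lowest there, and RPL22L1 is highest in A2780.

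The parental lines differed widely before any drug label. RPS24 stood at 774 and 824 CPM in parental OVCAR3, against 256 and 269 CPM in parental A2780 (log2 1.66, SE 0.10; edgeR adjusted p = 7.90e-09). RPS3 stood at 1550 and 1400 CPM against 566 and 612 CPM (log2 1.37, SE 0.10; edgeR adjusted p = 5.15e-08), while RPL29 did not pass (0.12, SE 0.10; edgeR adjusted p = 0.294). RPLP2 was the other way round, with 219 and 223 CPM in parental OVCAR3, against 405 and 457 CPM in parental A2780 (log2 −0.92, SE 0.10; edgeR adjusted p = 2.88e-06). The groups did not overlap for RPS24, RPS3 or RPLP2. Among members with lower counts, RPL17 (log2 2.20, SE 0.28), RPL36A (2.11, SE 0.18) and RPL26 (1.94, SE 0.14) were also higher in parental OVCAR3. In total 46 members were called higher and 10 lower in parental OVCAR3, against 32.3% and 33.7% of all genes (66.0% either way), and 29 and 32 when scaled to the members' own sum.

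With sh1, the hairpin that lowered ADAR less, the members that passed were all lower than with shNC. RPS28, of the small subunit, stood at 174 and 148 CPM with sh1 and 246 and 288 CPM with shNC (log2 −0.81, SE 0.13; edgeR adjusted p = 0.00172). RPL21, of the large subunit, stood at 232 and 291 CPM with sh1 and 407 and 449 CPM with shNC (log2 −0.79, SE 0.12; edgeR adjusted p = 0.000833). RPL38, known in mice for translation of Hox messages, stood at 173 and 156 CPM with sh1 and 219 and 261 CPM with shNC (log2 −0.62, SE 0.12; edgeR adjusted p = 0.00760). In each of these the sh1 libraries lay below both shNC libraries. RPS26, another gene of Diamond-Blackfan anaemia, fell by log2 −0.60 (SE 0.12), RPL41, the shortest member, by −0.59 (SE 0.12), RPL37A by −0.56 (SE 0.11), RPS27 by −0.55 (SE 0.12), RPL32 by −0.51 (SE 0.10) and RPS3 by −0.48 (SE 0.10). RPS6 did not pass (−0.30, SE 0.12; edgeR adjusted p = 0.173), and RPL22L1 stood at 31.8 and 46.4 CPM with sh1 and 29.8 and 36.4 CPM with shNC, which overlap.

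Of 83 members, 27 were called lower and 0 higher with sh1, 18 of the large and 9 of the small subunit, against 1.85% and 1.96% of the 19044 genes tested (3.81% either way). At an unadjusted edgeR p under 0.05 there were 63 lower and 1 higher. The members' median log2 fold change was −0.33, against 0.02 over all genes, and 73 of the 83 fold changes were negative. The number of calls rests on few libraries: it was 2 without replicate 2 of shNC, 18 without replicate 1 of shNC, 55 without replicate 1 of sh1 and 62 without replicate 2 of sh1. The 2 called without replicate 2 of shNC were RPS28 and RPL21, so RPL38, RPS26, RPL41, RPL37A, RPS27, RPL32 and RPS3 did not pass there. With total-count scaling 16 members were lower and 0 higher, while the split over all genes moved to 679 higher and 220 lower from 373 and 352 under TMM.

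Short messages outside the list were counted in the same libraries. These were 601 other protein-coding genes with a mean of at least 10 CPM, no longer than the members' median coding length of 472 bases. Of them, 10 were called higher and 17 lower with sh1, with a median log2 fold change of −0.04. Across the 83 members, the log2 fold change with sh1 had a Pearson's r of 0.265 and a Spearman's rho of 0.387 with log2 coding length, a description over genes that share libraries. The members with a C and T run at the start and those without had medians of −0.33 (n = 51) and −0.32 (n = 15). Only a single annotated start per member was searched, so members without a run there may still carry a TOP motif. These medians therefore cannot show whether the motif matters.

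The stronger hairpin, sh2, left most members near shNC. RPS28 stood at 184 and 230 CPM with sh2 and 246 and 288 CPM with shNC (log2 −0.47, SE 0.13; edgeR adjusted p = 0.0192). RPL37A (−0.35, SE 0.11; edgeR adjusted p = 0.0451) and RPS3 (−0.30, SE 0.10; edgeR adjusted p = 0.0471) were the only others called lower. RPL22L1, a copy of RPL22 that RPL22 itself represses, was the 1 member called higher, at 57.8 and 51.6 CPM with sh2 and 29.8 and 36.4 CPM with shNC (log2 0.62, SE 0.16; edgeR adjusted p = 0.0156). The groups did not overlap for RPS28 or RPL22L1. Neither held without every library: RPS28 was not called without replicate 2 of shNC or replicate 1 of sh2, and RPL22L1 not without replicate 1 of shNC or replicate 1 of sh2. RPL37A was not called without any 1 of the 4 libraries, and came to −0.23 without replicate 2 of shNC. RPS3 was not called without replicate 2 of shNC or either library of sh2. With every library kept, RPL37A and RPS3 were also not called with total counts (−0.24 and −0.19) or a replicate block (−0.35 and −0.29). Scaled to the members' own sum, RPS28 (−0.34), RPL37A (−0.22) and RPS3 (−0.16) were not called. RPL38 was called lower with no low-count filter (−0.35) and with DESeq2's Wald test (−0.36).

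These counts, 1 higher and 3 lower of 83, stand against 7.23% and 7.04% of all genes, and the members' median was −0.12 against 0.00, or −0.22 and −0.01 without replicates 1 and 2 of shNC in turn. Unadjusted edgeR p lay under 0.05 for 22 members that were lower and 2 that were higher, and 59 of the 83 fold changes were negative. With total-count scaling the members split 2 higher and 1 lower, and all genes 2407 higher and 822 lower, where TMM gave 1376 and 1341. Set directly against sh1, sh2 had 2 members higher and 0 lower, against 0.667% and 1.25% of all genes (1.92% either way), and 37 higher and 0 lower at an unadjusted edgeR p under 0.05. RPL21 stood at 518 and 494 CPM with sh2 and 232 and 291 CPM with sh1 (log2 0.93, SE 0.12; edgeR adjusted p = 0.000189), with no overlap. RPL32 stood at 449 and 460 CPM against 319 and 340 CPM (log2 0.43, SE 0.10; edgeR adjusted p = 0.0337), and was not called without either sh2 library. Without replicate 2 of sh1 the members called higher came to 41, and without replicate 1 of sh1 to 5. Over all genes the split moved from 127 higher and 238 lower under TMM to 167 and 188 with total counts. ADAR was lower with sh2 than with sh1 by log2 −1.27 (SE 0.11; edgeR adjusted p = 5.86e-06), so the hairpin with the lower ADAR level had the higher level of these 2 members. Both hairpins were compared with the same shNC libraries.

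**Figure D4:**
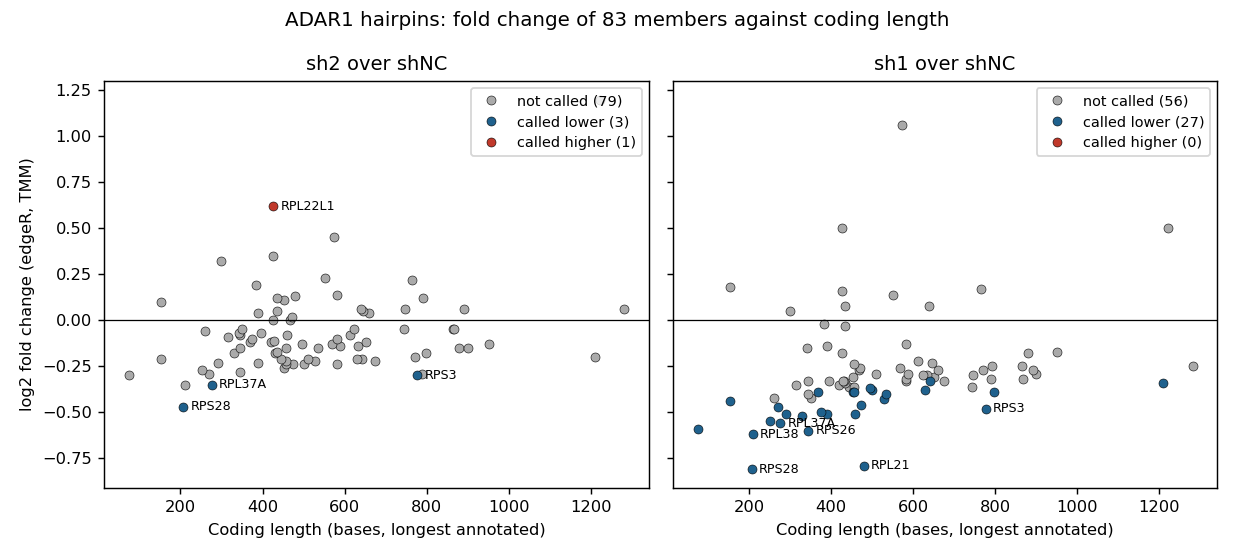
Log2 fold change over shNC (vertical axis) of 83 members against coding length in bases (horizontal axis), for sh2 (left) and sh1 (right). Each point is a member, blue called lower (3 left, 27 right) and red called higher (1 left, 0 right); with sh1 the points lie mostly below 0, lowest at RPS28 and RPL21.

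The shNC libraries, set against parental OVCAR3, crossed the sets of libraries with and without a hairpin, so set, hairpin and resistance label cannot be told apart. RPS15A, of the small subunit, stood at 82.9 and 100 CPM in shNC and 43.4 and 66.1 CPM in parental OVCAR3 (log2 0.93, SE 0.14; edgeR adjusted p = 7.95e-06). RPL7L1, a relative of RPL7, stood at 62.5 and 56.1 CPM in shNC and 204 and 179 CPM in parental OVCAR3 (log2 −1.50, SE 0.11; edgeR adjusted p = 3.79e-11). The groups did not overlap for either member. Whether the counts of RPS15A hold its full signal was not tested.

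The members that moved most in the libraries labelled as OVCAR3-DDP were looked up in shNC, which was set against the same parental libraries. RPLP2 came to log2 0.24 (SE 0.11; edgeR adjusted p = 0.0779), and was called higher with DESeq2 size factors (0.31), upper-quartile scaling (0.33), the Wald test (0.31) and without replicate 1 of shNC (0.36). RPS6 came to 0.17 (SE 0.12; edgeR adjusted p = 0.261) and RPS27L to −0.05 (SE 0.13; edgeR adjusted p = 0.815), while RPL29 rose by 0.61 (SE 0.11; edgeR adjusted p = 3.58e-05). RPS24 stood at 918 and 1040 CPM in shNC. Of 83 members, 64 were called higher and 4 lower in shNC, against 25.1% and 26.5% of all genes, and the median was 0.48 against 0.00. DESeq2 size factors gave 69 higher and 4 lower and upper-quartile scaling 70 and 4. Scaled to the members' own sum, which centres them by construction, 9 were higher and 17 lower. With total counts 47 were higher and 7 lower and the members' median was 0.29, while the median of all genes fell to −0.17 with 4772 higher and 8026 lower, against 6063 and 6400 under TMM. RPS10 (log2 0.89, SE 0.28) also rose and RPL36A fell (−0.87, SE 0.19), both uncertain through pseudogenes. RPS10 was not called without replicate 2 of parental OVCAR3, where it came to 0.54, or without replicate 1 of shNC.

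The paralog members each had their own pattern. RPL22L1 stood at 192 and 157 CPM in A2780-DDP and 162 and 163 CPM in parental A2780, above the 63.9 and 69.6 CPM of the libraries labelled as OVCAR3-DDP and the 42.9 and 46.6 CPM of parental OVCAR3. It rose in the libraries labelled as OVCAR3-DDP by log2 0.40 (SE 0.11), a call lost without their replicate 2, and its parent RPL22 rose there by 0.74 (SE 0.11). Per kilobase of coding sequence RPL22L1 averaged 382 CPM against 129 for RPL22 in parental A2780, and 105 against 96.5 in parental OVCAR3. RPL39L, a testis and tumour copy of RPL39, averaged 277 CPM per coding kilobase against 500 for RPL39 in parental A2780, and 124 against 1170 in parental OVCAR3. Between the parental lines RPL39L was lower in OVCAR3 by log2 −1.11 (SE 0.12) and RPL39 higher by 1.28 (SE 0.10).

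Per coding kilobase RPL26L1 averaged 66.6 CPM against 56.8 for RPL26 in the libraries labelled as OVCAR3-DDP, and 84.3 against 105 in parental OVCAR3. The pair lay further apart elsewhere, with RPL26L1 above RPL26 in A2780-DDP (76.8 and 29.5 CPM) and parental A2780 (70.2 and 28.4 CPM) and below it in sh2 (60.1 and 141 CPM), sh1 (60.2 and 124 CPM) and shNC (53.8 and 120 CPM). RPL26 ranked 77 of the 84 members per coding kilobase and shares 14.3% of its exon bases with AC135178.2 on the same strand. The order of the pair therefore holds for counted reads only. RPL26L1 fell by log2 −0.52 (SE 0.11) in the libraries labelled as OVCAR3-DDP. RPS27 fell with its copy RPS27L there, by log2 −0.87 (SE 0.14), and RPL7L1 rose by 0.95 (SE 0.10), opposite to its fall in shNC.

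Genes around the ribosome were counted next, on lists put together with earlier results of these data known. The list here called TOP translation factors holds genes whose messages also begin with a TOP motif. TPT1 and HNRNPA1 on it are not translation factors. In the libraries labelled as OVCAR3-DDP 8 of 14 were called higher and 2 lower, where 33.4% and 35.2% of all genes were. The list was led by EEF2 (log2 1.65), EEF1D (−1.35) and EIF3A (−1.25). The mitochondrial ribosomal proteins had 8 of 76 higher and 45 lower there, with MRPL1 at −2.29 and MRPL35 at −1.82, and a median of −0.66. The nucleolar factors that assemble ribosomes had 6 of 42 higher and 27 lower, with EBNA1BP2 at −2.30, UTP20 at −1.72 and BRIX1 at −1.59, and a median of −0.43. Of 14 hosts of small nucleolar RNAs, many of which also carry a TOP motif, 3 were higher and 7 lower, with ZFAS1 at −1.88. RNA polymerase I and its factors, which make ribosomal RNA, had 3 of 15 higher and 9 lower, with TAF1D at −2.33. The median was −0.24 for the host genes and −0.35 for the polymerase I list, beside 0.25 for the cytosolic members and 0.33 for the TOP translation factors in the same libraries. RACK1, the scaffold protein of the small subunit, rose by log2 1.19, while RPL36AL fell by −0.57.

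In A2780-DDP 18.0% of all genes were called higher and 17.3% lower. The nucleolar assembly factors had 21 of 42 higher and 2 lower there, with BRIX1 at log2 1.02, RIOK2 at 0.90 and WDR75 at 0.81, and a median of 0.31 beside 0.03 for the cytosolic members. Polymerase I factors had 7 of 15 higher and 1 lower, with TAF1A at 0.91. Mitochondrial ribosomal proteins had 15 of 76 higher, near the share of all genes, and 9 lower. With sh2, where 7.23% of all genes were higher and 7.04% lower, the nucleolar factors had 10 of 42 higher and 1 lower, with BRIX1 at 0.78 and NOP58 at 0.70, and the mitochondrial ribosomal proteins 9 of 76 higher and 0 lower. With sh1, where 1.96% of all genes were higher and 1.85% lower, the nucleolar factors had 0 higher and 1 lower (NHP2, −0.46), the mitochondrial ribosomal proteins 3 higher and 0 lower, and the TOP translation factors 0 higher and 2 of 14 lower (HNRNPA1 −0.45, EIF4B −0.38). RACK1 fell by −0.46 with sh1.

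In shNC against parental OVCAR3 25.1% of all genes were called higher and 26.5% lower, with a median of 0.00. The cytosolic members were mostly called higher and the assembly genes mostly lower, with 1 nucleolar factor higher and 36 of 42 lower (median −0.91, NOP56 −2.08), 4 mitochondrial ribosomal proteins higher and 52 of 76 lower (median −0.61), and 11 of 14 TOP translation factors higher and 1 lower (TPT1 1.97, EEF1A1 1.08). The 3 genes outside the list whose log2 CPM followed the summed member level most closely over the 14 libraries were AGBL5 (Pearson's r 0.966), YPEL3 (0.960) and POLR1D (0.960). These points are 7 groups of 2 that share lines and depth, so this only describes these libraries.

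**Figure D5:**
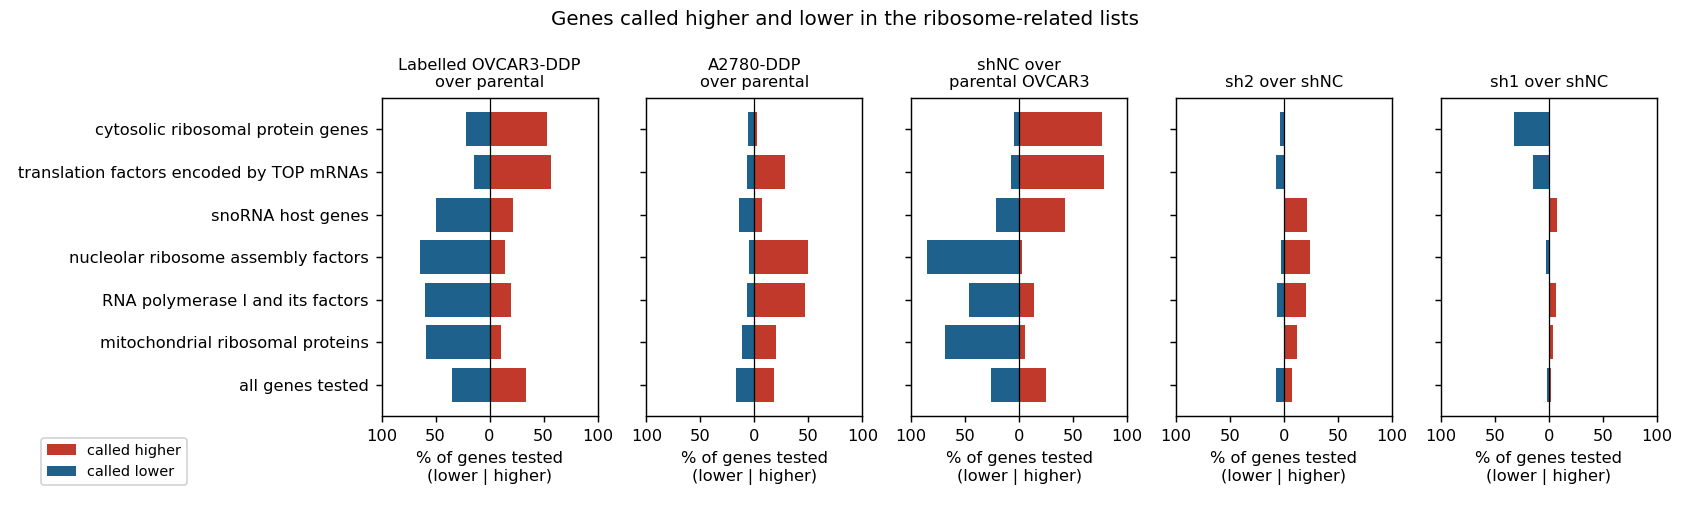
Percent of tested genes called higher (red, right of 0) and lower (blue, left of 0) in each list (rows) and comparison (panels). The cytosolic ribosomal protein genes and the TOP translation factors lie mainly right of 0 in the panels for labelled OVCAR3-DDP and for shNC over parental OVCAR3, where the nucleolar, polymerase I and mitochondrial ribosomal lists lie mainly left; the bottom row gives all genes tested.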

How the data were processed

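The values used were the gene counts deposited by the authors, 1 file per library, and no read was realigned. Per the submitters' processing notes, the build was GRCh38.p13 and the tools were HTSeq 2.0.3, STAR 2.7.8a, FastQC 0.11.9 and SAMtools. Total RNA was extracted in Trizol, per the labels' protocols. Which annotation release, strand setting and read layout were used is not given in the sources used here. Reads of overlapping and antisense genes therefore cannot be told apart. Gene types and lengths were taken from GENCODE 29. Of the reads, 48.7% to 50.0% were assigned to no counted feature, 2.09% to 2.48% were ambiguous and 2.36% to 4.99% were not unique. These summary lines stayed out of library sizes. A symbol was found for 62639 genes.

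Genes were tested on the deposited counts by the quasi-likelihood F-test of edgeR after TMM scaling, with filterByExpr at a minimum count of 10, 1 mean per group and Benjamini-Hochberg adjustment over all genes tested at 0.05. The 8 libraries without a hairpin formed 1 fit (23031 genes, 4 residual degrees of freedom), the 6 hairpin libraries another (19044 genes, 3), and all 14 the last, for shNC over parental OVCAR3 (24193 genes, 7). The biological coefficient of variation was 0.104, 0.106 and 0.106 in that order. Alternatives were DESeq2 size factors, upper-quartile scaling, total counts, scaling to the members' sum, no low-count filter, DESeq2's Wald test, all 14 libraries or the compared groups alone, a replicate block, leaving out each library and, chosen after seeing the data, leaving out both libraries labelled as OVCAR3-DDP. The scripts were tested on simulated data.

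The members and the gene lists were chosen with earlier results of these data known, so no list was tested as a set and none is independent evidence. In each comparison the 4 called members with the largest rise and the 4 with the largest fall and no overlap between groups were to be named, with the paralogs, stalk proteins, members with known other roles, highest and lowest levels, up to 3 called genes a list and the 3 genes that follow the summed level. Single-gene results for some members and list genes are not reported here. Software was R 4.3.3 with edgeR 4.0.16, DESeq2 1.42.0 and limma 3.58.1, and matplotlib 3.10.9, pandas 2.3.3 and numpy 2.4.6 under Python 3.11.15.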

Additional observations from a re-analysis of the deposited data

Results flagged for a closer look

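Singled out here are 7 of the members for which the change in the libraries labelled as OVCAR3-DDP over parental OVCAR3 differed from the change in A2780-DDP over parental A2780, tested as the difference itself. The log2 difference was 1.66 for RPL3L (SE 0.53; edgeR adjusted p = 0.0179), 1.60 for RPLP2, 1.33 for RPL29 and 1.26 for RPS6 (SE 0.16; edgeR adjusted p = 1.95e-05). It was −2.0 for RPS27L, −1.13 for RPL26 (SE 0.20; edgeR adjusted p = 0.00032) and −1.12 for RPL17 (SE 0.40; edgeR adjusted p = 0.0316). RPL3L was not called without replicate 2 of parental OVCAR3, replicate 1 of the libraries labelled as OVCAR3-DDP or replicate 1 of parental A2780. RPL17 was not called without any library but replicate 1 of parental OVCAR3 and replicate 2 of A2780-DDP, and came to −0.59 without replicate 2 of parental OVCAR3. The 12 ovarian epithelial markers together were also lower in the libraries labelled as OVCAR3-DDP, though WT1 was higher. They summed to 539 to 575 CPM there and 4490 to 4900 CPM in parental OVCAR3. The part of that in these differences was not tested.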

How the results depend on the processing

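Among 89 fold changes of named members, 1130 values under other settings were compared: 1011 kept direction and call, 82 lost the call, 15 gained it, 22 changed sign without having been called, and 0 called ones changed sign. The counts of members moved more. Scaled to the members' own sum, which was chosen to take out a common shift, they were 21 higher and 32 lower in the libraries labelled as OVCAR3-DDP, 4 higher in A2780-DDP, 19 and 28 for the line difference, 29 and 32 for parental OVCAR3 over parental A2780, 4 and 2 for sh1, 0 lower for sh2, 1 higher for sh2 over sh1, and 9 and 17 for shNC over parental OVCAR3. Under that scaling the median of all genes shifted to between −0.50 and 0.33, and the share of higher among all calls was 35.4% in place of 48.7%, 51.6% (51.0%), 36.1% (50%), 33.1% (49.0%), 98.8% (51.4%), 79.4% (50.6%), 3.7% (34.8%) and 22.4% (48.6%) in the order above. In A2780-DDP the members called higher were 4 with DESeq2 size factors, 5 with upper-quartile scaling, 7 with no low-count filter, 5 with DESeq2's Wald test and 5 in a fit of all 14 libraries. Those called lower were 3 with size factors, with upper-quartile scaling, with 14 libraries, and without both libraries labelled as OVCAR3-DDP. The line difference had 9 negative with upper-quartile scaling and 7 with total counts. With sh1, 16 were lower with total counts, 41 with no filter and 45 with the Wald test. With sh2, total counts gave 2 higher and 1 lower, no filter 5 lower and the Wald test 5 lower. Over sh1, sh2 had 9 higher with no filter and 5 with the Wald test. shNC over parental OVCAR3 had 7 lower with total counts. The causes were not tested. Leaving out 1 library at a time, the ranges higher and lower were 37 to 43 and 15 to 18 for the libraries labelled as OVCAR3-DDP, 2 to 17 and 1 to 4 for A2780-DDP, 24 to 47 and 7 to 17 for the line difference, 38 to 51 and 9 to 10 between parental lines, 0 to 2 and 2 to 62 for sh1, 0 to 1 and 0 to 2 for sh2, 1 to 41 and 0 to 0 for sh2 over sh1, and 44 to 65 and 3 to 5 for shNC over parental OVCAR3. Where this left a group with 1 library, that library's spread was assumed to be that of the other groups.

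Replicate numbers were not taken to pair the libraries. Deviations of same-numbered libraries correlated at −0.17 to 0.434 over 11172 genes without a hairpin and at −0.239 to 0.0548 with one. The value of 0.434 lay between parental OVCAR3 and A2780-DDP. This check cannot show that no pairing exists. With the replicate number as a block, members called lower were 1 for sh2 and 21 for sh1. The other counts stayed within 1.5 times, with 43 higher and 18 lower in the libraries labelled as OVCAR3-DDP and 2 and 4 in A2780-DDP.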

Other observations

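Genes that regulate ribosomal protein synthesis had values not described above. DDIT4, an inhibitor of mTOR, was lower in the libraries labelled as OVCAR3-DDP (log2 −3.21, SE 0.10; edgeR adjusted p = 1.48e-11) and in A2780-DDP (log2 −3.14, SE 0.10; edgeR adjusted p = 1.33e-10), and higher in shNC over parental OVCAR3 (log2 1.65, SE 0.10; edgeR adjusted p = 2.62e-12). SESN2, another inhibitor of mTOR signalling, was higher with sh2 (log2 1.01, SE 0.18; edgeR adjusted p = 0.00156) and with sh1 (log2 1.11, SE 0.18; edgeR adjusted p = 0.0019), and lower in A2780-DDP (log2 −0.98, SE 0.11) and in shNC over parental OVCAR3 (log2 −3.73, SE 0.15). MYC, which drives ribosome synthesis, was lower in shNC than in parental OVCAR3 (log2 −1.22, SE 0.10; edgeR adjusted p = 3.74e-10), and higher with sh2 (log2 0.46, SE 0.11; edgeR adjusted p = 0.00685) and in A2780-DDP (log2 0.78, SE 0.10; edgeR adjusted p = 4.28e-05). It did not pass in the libraries labelled as OVCAR3-DDP (log2 −0.11, SE 0.10; edgeR adjusted p = 0.335) or with sh1 (log2 0.17, SE 0.11; edgeR adjusted p = 0.397). Between the parental lines MYC was higher in OVCAR3 by log2 3.6 (SE 0.11). Of the 18 regulators on the list, 7 were higher and 6 lower in the libraries labelled as OVCAR3-DDP, where 33.4% and 35.2% of all genes were, and 2 and 5 in A2780-DDP, where 18.0% and 17.3% were. Of the 17 tested with hairpins, 3 were higher and 1 lower with sh2 (7.23% and 7.04% of all genes), and 2 and 0 with sh1 (1.96% and 1.85%). Of 18 targets of p53, 10 were higher and 5 lower in the libraries labelled as OVCAR3-DDP, where GDF15 stood at log2 −3.09 and TP53INP1 at 4.94, and 3 and 4 in A2780-DDP, beside the same shares of all genes.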
